A study of Mus musculus with 22 samples.

Results

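To ask where RNA polymerase II (PolII) was still found on mitotic chromatin away from the promoters of protein-coding genes, and what became of those places after mitosis, peaks were examined in 18 PolII ChIP-seq libraries of mouse erythroid cells collected from prometaphase to late-G1. Joining every pair of peaks with 1 bp or more in common, across all 18 lists, left 169903 merged regions. Of these, 260 overlapped a peak in at least 3 of the 4 prometaphase lists and held no transcription start site (TSS) of a protein-coding gene in the GENCODE vM1 annotation of mm9, and 1076 others met the same condition and held one. The 260 are called mitotic regions without a coding TSS here, and some hold the start of a non-coding gene. They were chosen by measured prometaphase peaks, so their prometaphase values are a description and no test is attached to them.

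The cells were G1E-ER4, a GATA1-null proerythroblast line. The study calls G1E-ER4 an erythroblast line and states that its terminal erythroid differentiation is inducible. The cells had an auxin-inducible degron and mCherry fused to both CTCF alleles, with the OsTiR adaptor expressed from a transduced construct. All groups, the controls included, carried these alleles and were arrested with nocodazole at 200 ng/ml. Prometaphase cells were harvested without release, and early-G1, mid-G1 and late-G1 cells 60, 120 and 240 min after it, each with auxin to degrade CTCF or without auxin (control). Auxin was added during the arrest and kept after release. Each condition had 3 libraries in mid-G1 and 2 in every other stage (numbered 2 and 3 in late-G1 control), all from this engineered line, which the study describes as biological replicates. The methods describe sorting by DNA content and a mitotic phosphoepitope, with mCherry used to gate control from auxin cells.

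PolII is largely displaced from condensed chromosomes and reloads as nuclei reform. It makes most spliceosomal small nuclear RNAs (snRNAs) and the U3 and U8 small nucleolar RNAs from short genes without introns that depend on a dedicated 3' end signal, while U6 and the RNA of RNase P are products of RNA polymerase III. At coding genes PolII usually runs past the annotated end before it is released, and at replication-dependent histone genes it ends transcripts without a poly(A) tail.

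The sequences shown here mark a small set of regions that differ from the rest in where they were found again after mitosis. Of the 260 regions, 7 held at least 3 tandem copies of the pentamer GGAAT, read on either strand, and 3 of them are given as 200 base windows of the mm9 plus strand in which capitals mark the tandem pentamers (GGAAT or its complement ATTCC). This motif was chosen after the sequences had been looked at.
Ano2 intron, chr6:125826882-125827081, + strand: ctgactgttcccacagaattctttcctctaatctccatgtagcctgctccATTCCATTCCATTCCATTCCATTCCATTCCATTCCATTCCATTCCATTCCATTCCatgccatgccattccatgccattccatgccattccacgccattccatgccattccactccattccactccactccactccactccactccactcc
near Olfr854, chr9:19379832-19380031, + strand: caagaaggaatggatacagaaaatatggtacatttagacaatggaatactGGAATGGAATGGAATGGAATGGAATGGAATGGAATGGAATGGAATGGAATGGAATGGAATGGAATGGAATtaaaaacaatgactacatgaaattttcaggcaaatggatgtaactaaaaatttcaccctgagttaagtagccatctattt
beside Gm17521, chrX:119944949-119945148, + strand: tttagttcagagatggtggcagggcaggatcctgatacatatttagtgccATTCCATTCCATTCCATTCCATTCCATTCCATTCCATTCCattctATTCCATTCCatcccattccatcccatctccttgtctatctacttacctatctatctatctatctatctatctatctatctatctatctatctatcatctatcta

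The 260 regions had a median width of 4841.5 bp, from 172 to 34796 bp, and 184 were found in all 4 prometaphase lists and 76 in 3. At the threshold, regions without a coding TSS that were found in 3 lists had a median prometaphase fold enrichment of 6.75, and the 155 found in 2 lists and therefore not included had 6.58. When peaks within 1 kb of each other were joined, 130 regions remained in place of 260, and 29.23% of them held a small RNA TSS. The fold enrichment is the authors' ratio of ChIP signal to local background at a peak, and the highest value within a region was used. The 4 prometaphase lists held 2414 to 3918 peaks and the post-mitotic lists 50594 to 117125, and the background depth recovered from each list was 4.94 to 5.96 reads per kb in prometaphase and 4.51 to 13.3 afterwards. Of 10 erythroid and progenitor genes, 9 had a TSS peak in all 14 post-mitotic lists (Zfpm1 in 12), and of 10 genes of other cell types 8 had none, with Gfap in 6 and Pax6 in 14.

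By annotation, 44 of the 260 regions (16.9%) held the TSS of a small RNA gene and 13 (5.0%) that of another non-coding gene or pseudogene. The same shares were 1.90% and 2.94% among the 7409 regions without a coding TSS that were detected in all 14 post-mitotic lists, and 0.241% and 0.374% among all 157610 regions without a coding TSS. A wider region holds a TSS more readily, and these shares are not corrected for width. Median width was 4841.5 bp in the 260 and 314 bp in the 156507 without a coding TSS found in no prometaphase list. A further 137 of the 260 (52.7%) overlapped a protein-coding gene, 14 lay within 5 kb downstream and 8 within 5 kb upstream of such a gene, and 44 lay elsewhere. The median distance from the prometaphase summit to the nearest coding TSS of this annotation was 11116.5 bp, and 10 regions had such a TSS within 1 kb of the summit. The annotation is an early release, and 37 regions held the start of a RefSeq transcript matched letter for letter, 12 of them of a coding gene. One of these was the start of Rpl41, a ribosomal protein gene, in the region at chr10:127985590-127986617 that vM1 leaves upstream of Zc3h10.

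PolII summits in prometaphase often sat past the ends of genes. Of the 260 summits, 185 lay outside annotated coding genes, 46 in an intron, 22 in an untranslated exon and 7 in a coding exon. Some 116 (44.6%) lay 0 to 5 kb past the annotated end of a coding gene, at a median of 1524.5 bp, and 30 (11.5%) lay within 5 kb before it. By the highest summit of any list the share past an end was 45.4% (118 regions), against 32.7% of the 7409 regions detected in all 14 post-mitotic lists and 10.3% of the 157610. Among the 137 regions classed as overlapping a coding gene, 84 had their summit 0 to 5 kb past the nearest coding gene end. That end need not belong to the overlapped gene.

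At small RNA genes summits also lay downstream. The prometaphase summit lay within 2 kb of the start of an snRNA, U3 or U8 gene in 27 regions, and in 27 of 27 it lay downstream of that start, by 157 to 1443 bp with a median of 541 bp. Only 14 of the 27 regions held the gene start, and the other 13, among them those of U4, U7, U11 and U12, lay entirely past it. The authors removed reads of low mapping quality, which applies to gene copies that share sequence.

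**Figure D1:**
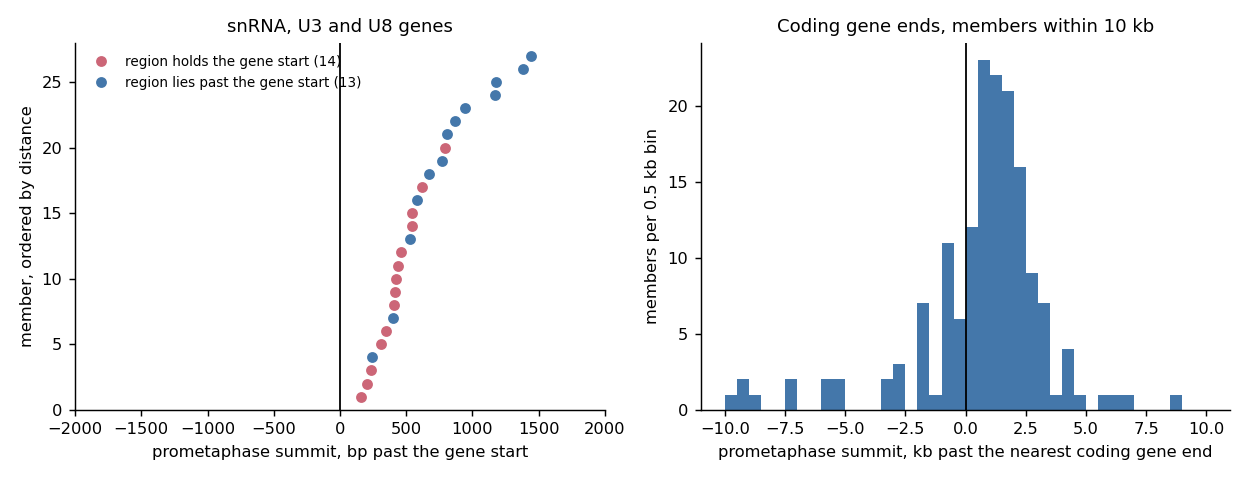
Position of the prometaphase summit relative to snRNA, U3 or U8 gene starts (left, bp, 1 point per region, red where the region holds the gene start and blue where it does not) and to the nearest coding gene end (right, counts per 0.5 kb bin, regions within 10 kb). All 27 points on the left lie to the right of 0, and on the right the bins just past the end are the fullest.

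For description the regions were divided by position, in a fixed order and after their values had been seen, into those beside an snRNA, U3 or U8 gene (27), in histone gene clusters (10), with the tandem pentamer (7), past the end of a coding gene (102), over another non-coding TSS (25), inside a coding gene (46) and others (43). Within each list regions were ranked by fold enrichment, with rank 1 the strongest, because lists of different depth are not on 1 scale. The regions beside snRNA, U3 and U8 genes had a median prometaphase rank of 22, the histone regions 133, the pentamer regions 418, and the other 4 groups 681 to 1082. Of the 25 regions with the best mean prometaphase rank, 18 lay beside an snRNA, U3 or U8 gene and 3 in histone clusters.

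The regions held 5 copies of the U5 snRNA gene, whose RNA aligns exon ends in the spliceosome, here lettered A to E by position. The best rank belonged to U5 copy A at chr4:116861862-116864799, with fold enrichments of 69.7 and 61.8 in control and 70.4 and 50.2 in auxin prometaphase libraries. It was followed by a copy of the U3 gene, whose RNA guides the processing of ribosomal RNA, in an intron of Tex14 at chr11:87262175-87264125 (71.6 and 53.6 in control, 64.9 and 64.3 in auxin). A U2 gene at chr11:101518909-101522891 came next (59.6 and 56.2 in control, 64.9 and 56.6 in auxin). In these 3 regions the control and auxin values overlapped. The Tex14 introns alone held the U1 gene and 5 U3 regions of this group, and a second U2 gene lay nearby at chr11:101503218-101507711. Regions are called U3 here by distance to a U3 gene start, and none of them held that start. Among these U3 regions, that at chr11:87256783-87258428, also one of best prometaphase rank, held the start of a U6 gene. In all, 3 mitotic regions without a coding TSS held a U6 start. Which gene the PolII signal at these regions belongs to was not tested.

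Relative to the level reached after mitosis, the snRNA regions also stood high. The ratio of the mean prometaphase to the mean early-G1 fold enrichment had a median of 0.554 beside snRNA, U3 and U8 genes, 0.449 in histone clusters, 1.10 for the pentamer regions and 0.262 to 0.311 in the other groups, beside 0.316 over the 260 regions and 0.221 over the 1076 mitotic regions with a coding TSS. Lists without a peak in a region were left out of its means. The 7 pentamer regions had peaks in 1 and 7 cases in early-G1 control replicates 1 and 2. In early-G1 auxin replicates 1 and 2 they had 2 and 0. Their ratio thus rests mostly on early-G1 control replicate 2 and does not show their absence from the other early-G1 lists. The ratio exceeded 1 in 17 of the 260, and the region near BC048403, with no early-G1 peak, has none. Of these 17, 5 lay beside snRNA genes, at U7, at U11, at the U2-like gene AC120136.3 and at the flanks of 2 U1 genes on chromosome 3. Fold enrichment from lists of different depth is compared in these ratios, so they describe the lists and not amounts of PolII.

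**Figure D2:**
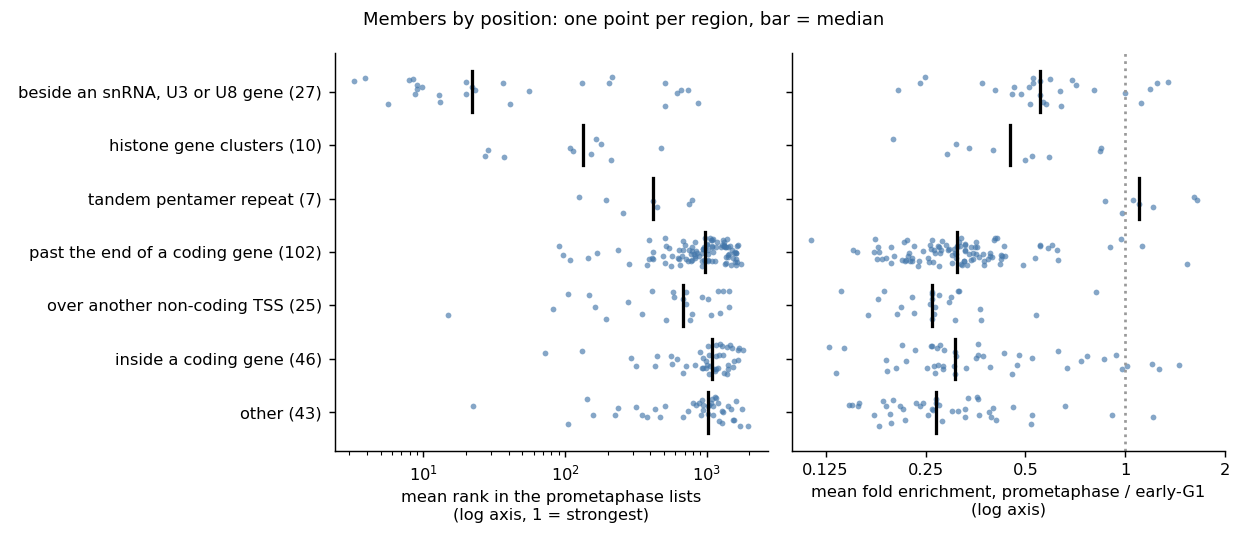
Mean rank in the prometaphase lists (left, log axis, 1 is strongest) and ratio of mean prometaphase to mean early-G1 fold enrichment (right, log axis, dotted line at 1) for the 260 regions by position, with bars at group medians. The region near BC048403 had no early-G1 peak and has no point on the right. The snRNA, U3 and U8 group has the best ranks (median 22) and the pentamer group the highest ratios (median 1.10). Means are over lists with a peak, and most early-G1 lists held few of the pentamer regions.

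After mitosis almost all of these regions were found again. In each post-mitotic list 248 to 259 of the 260 had a peak, and 246 had 1 in all 14 lists. Of the 14 regions missing from at least 1 list, 7 were the pentamer regions, which were 0 of the 246 others. Of the 260 regions, 13 were narrower than 500 bp, and 10 of these were among the 14. The region found least often lay 12366 bp from the TSS of BC048403 at chr10:121200152-121200323, with fold enrichments of 4.22 and 3.85 in the prometaphase controls and 4.10 in auxin replicate 2, and with a single later peak, in mid-G1 control replicate 1 (11.4).

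Tandem GGAAT was rare elsewhere. It was present in 34 of all 169903 merged regions (0.0200%), in 3 of the 166220 that no prometaphase list held, in 23 of the 2347 found in 1 or 2 prometaphase lists, in 1 of the 1076 mitotic regions with a coding TSS and in 7 of the 260 (2.69%). These regions were 320 to 664 bp wide. The telomere hexamer TTAGGG in tandem was found in 1 of the 260, in Efna5, and in 35 of all merged regions.

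The pentamer regions were seen in some libraries and not in others of the same group. All 7 had a peak in both prometaphase controls and in auxin replicate 1, and 6 had one in auxin replicate 2. Prometaphase control replicate 2 gave the highest prometaphase value in 7 of 7, with a median of 23.7 against 11.8, 10.4 and 9.22 in the other libraries. In early-G1 control replicate 2 all 7 had a peak (median 14.7), and in control replicate 1 only 1, in auxin replicate 1 only 2 and in auxin replicate 2 none. In mid-G1 the control replicates 1, 2 and 3 held 6, 1 and 7 and the auxin replicates 6, 3 and 6, and in late-G1 the lists held 5 and 2 in control and 2 and 4 in auxin. Libraries of the same stage and condition thus differed by up to 6 of the 7 regions, and why was not tested. The window in the Ano2 intron had 6.01 and 30.1 in the prometaphase controls and 9.90 and 7.72 with auxin, and 4 later peaks, of 12.8 in early-G1 control replicate 2, 6.12 in mid-G1 control replicate 3, 5.59 in mid-G1 auxin replicate 1 and 12.5 in late-G1 auxin replicate 2.

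**Figure D3:**
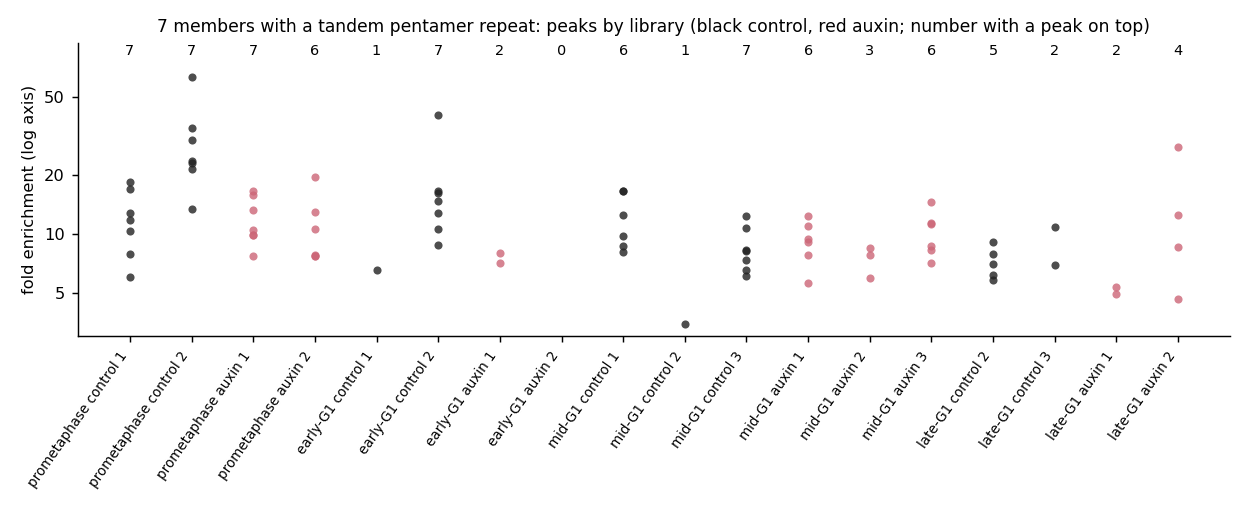
Fold enrichment (log axis) of the 7 regions with a tandem pentamer in each of the 18 libraries, black for control and red for auxin, with the number of regions that had a peak above each column. Prometaphase control replicate 2 and early-G1 control replicate 2 hold all 7 and the highest values of their stages.

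To follow the course after mitosis with values that had not chosen the regions, −log2 of the rank was compared between stages with limma over the 15784 regions with a peak in every one of the 14 post-mitotic lists, 246 of them mitotic regions without a coding TSS. A change of +1.00 means a rank number divided by 2, and a call required an adjusted p (Benjamini-Hochberg, over all regions tested) under 0.05. Ranks cannot show a change that all regions share. The groups of regions by position get counts and medians only.

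From early-G1 to mid-G1, 50 of the 246 rose (background 7.81% of all regions tested) and 16 fell (6.18%), with a median change of 0.36 against 0.01 over all regions. Over this step 138 of the 1073 mitotic regions with a coding TSS rose and 139 fell, with a median of -0.02. The share called was 25.8% there and 26.8% in the 246. From mid-G1 to late-G1, 15 rose (3.03%) and 32 fell (3.85%), as did 87 and 100 of the 1073. Between early-G1 and late-G1, 42 rose (7.47%) and 33 fell (7.29%), and in the 1073 mitotic regions with a coding TSS 111 rose and 164 fell. In control cells alone 13 rose (1.91%) and 17 fell (1.88%) over that interval, and with auxin 27 rose (2.36%) and 7 fell (2.24%). Among the 1073, 39 rose and 66 fell in control, and 58 rose and 62 fell with auxin. On the scale of log2 fold enrichment, centred on the median of each list, 30 of the 42 and 23 of the 33 were called in the same direction, and on a normal score of the rank only 5 and 4 were called. On that score the calls described below at U5 copies B, C and D, the U2 genes at chr1:72272411 and chr11:101518909, AC120136.1, the U1 flank at chr3:96287431, Srsf3, Ptma and Rpl41 between early-G1 and late-G1, and all 4 auxin calls named by rule, were lost (adjusted p = 0.0768 to 1.0, limma). The rises from early-G1 to mid-G1 numbered 29 to 33 when any of the 4 early-G1 libraries was left out, and the falls from early-G1 to late-G1 numbered 20 without early-G1 auxin replicate 1. Without late-G1 auxin replicate 1, 7 rose and 20 fell from mid-G1 to late-G1, and without late-G1 control replicate 3, 24 rose. In control alone 4 or 5 rose and 5 fell without either early-G1 control library, and 8 fell without late-G1 control replicate 3. With auxin alone 5 to 9 rose and 2 to 4 fell without any one of the early-G1 or late-G1 auxin libraries, and 11 fell without late-G1 control replicate 2 or 3.

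**Figure D4:**
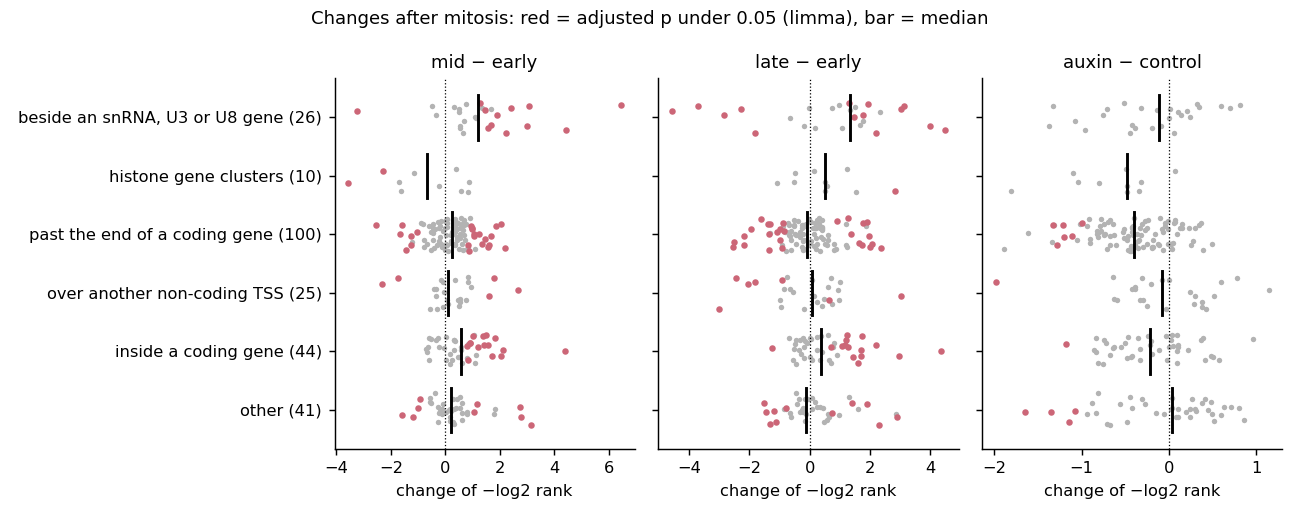
Change of −log2 rank from early-G1 to mid-G1, from early-G1 to late-G1 and from control to auxin for the 246 regions tested, by position, with red points for an adjusted p under 0.05 (limma) and bars at group medians. Red points lie mostly to the right of 0 for snRNA regions and regions inside coding genes in the first 2 panels, and all 12 red points lie to its left in the third.

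Of the groups by position, the snRNA, U3 and U8 regions had the largest share of calls in rank from early-G1 to mid-G1 and to late-G1. Of 26 tested, 14 changed between early-G1 and late-G1, 9 up and 5 down (background 7.47% and 7.29%), with a median of 1.33, and 11 rose and 1 fell from early-G1 to mid-G1 (7.81% and 6.18%). To late-G1 in control alone, 1 rose and 3 fell (1.91% and 1.88%), with a median of 0.46. With auxin alone, 7 rose and 1 fell (2.36% and 2.24%), with a median of 1.78. The difference in course was called in 0 of the 26 and was positive in 24. On centred log2 fold enrichment the rises to late-G1 that were called were those at U5 copies B and C, the U1 flanks on chromosome 3 and U12. The falls were not called on that scale. The 5 that fell ranked between 1 and 31 in every early-G1 list, where small differences in fold enrichment move the rank a lot. The U1 gene in Tex14, at chr11:87235354-87239218, was at rank 1 to 1.5 in early-G1 with fold enrichments of 135 and 109 in control and 133 and 119 in auxin. In late-G1 it had 102 and 80.6 in control and 103 and 98.7 in auxin. Its rank fell by 4.56 ± 0.57 (SE, adjusted p = 2.2e-04, limma), while on centred log2 fold enrichment the change was -0.29 and was not called (adjusted p = 0.378). The U2 gene at chr1:72272411-72275006 and U5 copy D likewise fell in rank (by 2.85 ± 0.63 and 2.28 ± 0.40, adjusted p = 0.00854 and 0.00219) and were not called on the log2 scale (adjusted p = 0.276 and 0.443, limma). The U2 gene at chr11:101518909 fell by 3.69 ± 0.99 (adjusted p = 0.0219, limma), and this call was lost on the log2 scale and without early-G1 auxin replicate 2, early-G1 control replicate 1, late-G1 auxin replicate 2 or late-G1 control replicate 3 (adjusted p = 0.0836, 0.0711, 0.0753 and 0.0609).

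The 5 U5 copies divided. Copy A was the highest of the 5 in 17 of the 18 lists, and in late-G1 auxin replicate 1 it took place 4. It had fold enrichments of 131 and 103 in early-G1 control and 116 and 107 in auxin, and of 122 and 101 in late-G1 control and 82.4 and 126 in auxin. These overlapped, and its change of -0.20 ± 0.75 was not called (adjusted p = 0.886, limma). Copy B, at chr4:116873958-116876387, had 72.7 and 59.1 in early-G1 control and 73.0 and 51.3 in auxin, and 102 and 98.5 in late-G1 control and 108 and 94.1 in auxin.
All 4 late-G1 values of copy B lay above all 4 early-G1 values, and it rose by 3.97 ± 0.64 in rank (adjusted p = 0.00125, limma) and by 0.74 on the log2 scale (adjusted p = 0.00925), a call lost on the normal score (adjusted p = 0.109). Copy C, at chr4:116883189-116884904, rose by 3.13 ± 0.55 (adjusted p = 0.00218, limma) and by 0.85 on the log2 scale (adjusted p = 0.00982), likewise lost on the normal score (adjusted p = 0.113), from 61.8, 44.3, 39.7 and 23.5 to 70.1, 81.3, 75.5 and 50.4. Its 2 sets of values overlapped. By condition, the log2 change of copy B was 0.50 in control (adjusted p = 0.277) and 0.99 in auxin (adjusted p = 0.0352, limma). That of copy C was 0.42 in control (adjusted p = 0.455) and 1.28 in auxin (adjusted p = 0.0233, limma). Neither difference in course was called (adjusted p = 0.966 and 0.948, limma). Copies D, at chr9:65041033-65044913, and E, at chr9:65047214-65050459, changed by -2.28 ± 0.40 (adjusted p = 0.00219) and -0.65 ± 0.72 (adjusted p = 0.579, limma).
Copies B and C also ranked lowest of the 5 in prometaphase, in places 4 and 5 in each of the 4 lists, with fold enrichments of 12.2 to 18.3 and 8.23 to 12.8 against 44.8 to 70.4 for the other copies. In the late-G1 lists copy B held place 2 or 3. In 300 bp around their summits the share of 32-base words found more than once in the genome was 0% for A and D, 3.72% for B, 21.6% for C and 29.7% for E.

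The snRNA gene AC120136.3, in the region at chr1:72300848-72305642, is 99.0% identical over its 191 bases to an annotated U2 gene. It had the largest change of all 246 regions from early-G1 to mid-G1. Its fold enrichment was 65.2, 53.6, 50.5 and 57.6 in prometaphase and 50.8, 38.7, 54.8 and 46.9 in early-G1. The mid-G1 controls had 142, 109 and 97.0 and the mid-G1 auxin libraries 125, 125 and 113, and late-G1 returned to 61.9 and 45.2 without auxin and 55.8 and 64 with it.
All 6 mid-G1 values lay above every value of the other stages. The rise was 6.46 ± 0.68 in rank (adjusted p = 6.2e-05, limma) and 1.46 on the log2 scale (adjusted p = 3.4e-04), and the fall to late-G1 was 5.50 ± 0.68 (adjusted p = 4.1e-04) and 1.13 on the log2 scale. The neighbouring AC120136.1 at chr1:72290101-72292725, 99.5% identical to a U2 gene, changed by 0.75 ± 0.51 from early-G1 to mid-G1 (adjusted p = 0.361, limma), from 90.7, 67.5, 76.2 and 80.8 to between 78.2 and 110. It rose by 1.93 ± 0.56 between early-G1 and late-G1 (adjusted p = 0.0319, limma), a call lost on the log2 scale (adjusted p = 0.273) and without early-G1 auxin replicate 1 or 2, early-G1 control replicate 2, late-G1 auxin replicate 2 or late-G1 control replicate 2 (adjusted p = 0.0617 to 0.136).

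The flanks of 2 U1 genes on chromosome 3 were called higher in late-G1. The region at chr3:96132877-96134240, 806 bp past the U1 start at its summit, had prometaphase values of 54.1, 40.3, 55 and 43.2. In early-G1 it had 45.2 and 43.7 in control and 28.8 and 25.6 in auxin, and in late-G1 98.3 and 56.4 in control and 99.1 and 85.8 in auxin. It rose by 4.48 ± 0.63 (adjusted p = 5.08e-04, limma), and by 1.33 on the log2 scale (adjusted p = 0.00109). By condition, the log2 change was 0.63 in control (adjusted p = 0.276) and 2.03 in auxin (adjusted p = 0.00456, limma). The difference in course was not called (adjusted p = 0.89, limma).
Its early-G1 values lay below its prometaphase values in the auxin libraries and within them in control. The flank at chr3:96287431-96289625 rose by 3.02 ± 0.96 (adjusted p = 0.0467, limma), a call that was lost without any of the 4 early-G1 libraries, late-G1 control replicate 2, late-G1 auxin replicates 1 or 2, mid-G1 auxin replicate 3 or mid-G1 control replicate 2 (adjusted p = 0.0534 to 0.156), by the rank of the −log10 p-value (adjusted p = 0.0692) and on the normal score (adjusted p = 0.188). On the log2 scale its change was 0.22 in control (adjusted p = 0.83) and 1.98 in auxin (adjusted p = 0.0216, limma), and the difference in course was not called (adjusted p = 0.89). The regions beside U11 and U12, of the minor spliceosome, and beside U4, named after their values were seen, rose by 1.31 ± 0.41, 2.18 ± 0.66 and 1.77 ± 0.55 between early-G1 and late-G1 (adjusted p = 0.0424, 0.0388 and 0.0438, limma). The U11 region had 12.3 and 14.7 in early-G1 control, 4.41 and 6.15 in auxin, 19.9 and 6.70 in late-G1 control and 19.9 and 17.1 in auxin, so that early-G1 and late-G1 overlapped in control, and on the log2 scale it was not called (adjusted p = 0.0516), nor was U4 (adjusted p = 0.0587, limma). The log2 change at U12 was 0.06 in control (adjusted p = 0.954) and 1.70 in auxin (adjusted p = 0.0285, limma), and at U11 it was -0.33 in control (adjusted p = 0.706) and 2.09 in auxin (adjusted p = 0.0124, limma). Neither difference in course was called (adjusted p = 0.89 and 0.881, limma).

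**Figure D5:**
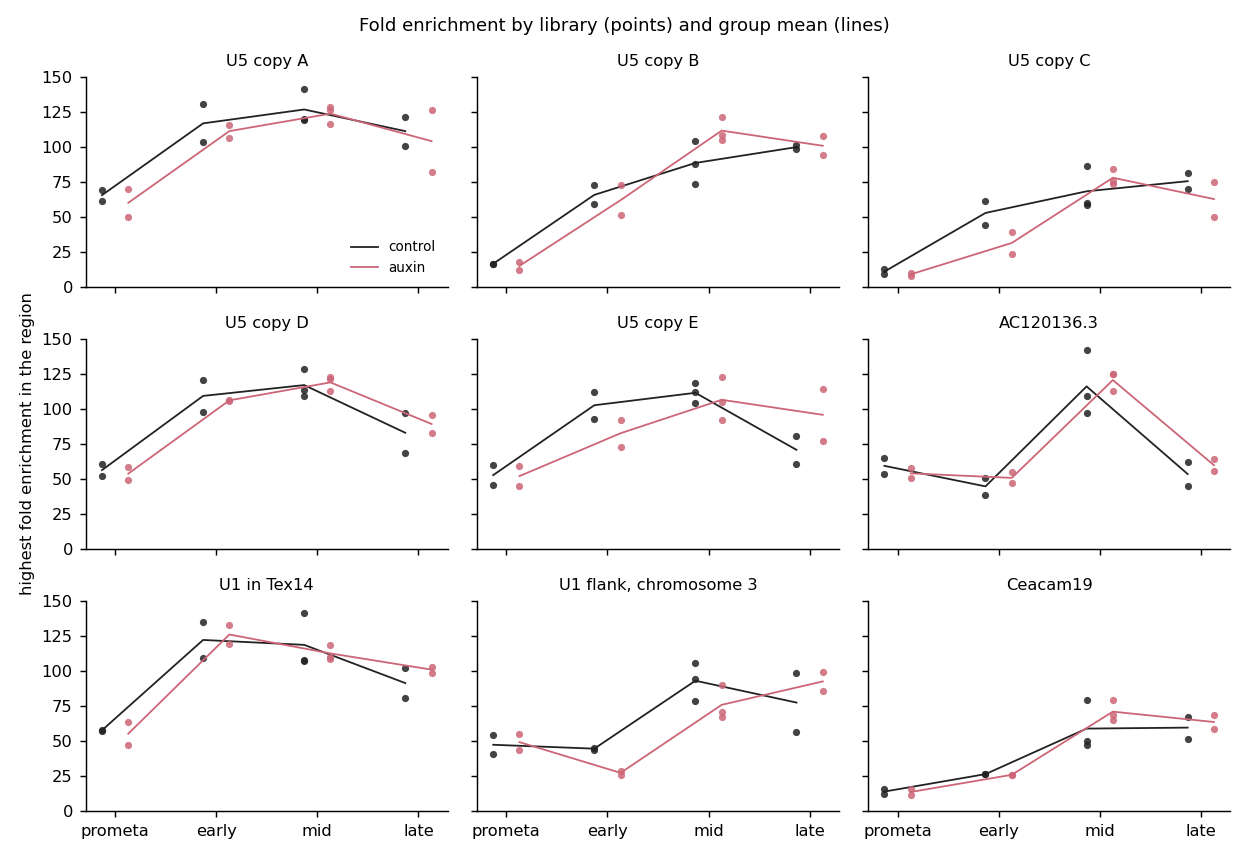
Highest fold enrichment in 9 regions by library (points) and group means (lines), black for control and red for auxin, from prometaphase to late-G1. U5 copies B and C start low in prometaphase and climb, AC120136.3 peaks in mid-G1 at 97.0 to 142, and Ceacam19 rises from 25.6 to 26.5 in early-G1 to 51.7 to 68.6 in late-G1.

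Regions inside coding genes rose more often than they fell, with 14 up and 1 down of 44 between early-G1 and late-G1 (background 7.47% and 7.29%). The smallest adjusted p was in Ceacam19, at chr7:20462024-20463549, with its summit in an untranslated exon 1699 bp before the gene end. Its fold enrichment was 26.5, 26.1, 25.9 and 25.6 in early-G1, 50.1, 47.0 and 79.2 in mid-G1 control, 79.2, 68.5 and 65.0 in mid-G1 auxin and 51.7, 67.3, 68.6 and 58.3 in late-G1. No early-G1 value reached any later value, and it rose by 4.35 ± 0.30 in rank (adjusted p = 2.14e-06, limma) and 1.31 on the log2 scale (adjusted p = 5.05e-05). Others named after their values were seen were Fabp5, a fatty acid binding protein, at 1.74 (adjusted p = 0.00437), Treml2 at 1.68 (adjusted p = 0.00603) and Notch3, a receptor, at 1.07 (adjusted p = 0.00215, limma).

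Past the ends of coding genes, 11 of 100 regions rose and 16 fell between early-G1 and late-G1, against 7.47% and 7.29% of all regions tested. The falls included the ends of Srsf3, a splicing factor (-2.53 ± 0.47, adjusted p = 0.00311, limma), and Ptma, prothymosin alpha (-2.49 ± 0.70, adjusted p = 0.0269, limma). The Srsf3 region had 53.4 and 53.9 in early-G1 control, 40.0 and 54.1 in early-G1 auxin, and 27.9, 28.7, 20.7 and 29.6 in late-G1, which did not overlap. The Ptma region had 19.6, 19.3 and 18.9 in 3 late-G1 libraries but 60.7 in control replicate 3, and its call was lost without any of 6 libraries, all 4 of early-G1 but auxin replicate 2, both of late-G1 auxin and late-G1 control replicate 2 (adjusted p = 0.0637 to 0.099). Named after their values were seen, ends of Ybx1 (-2.19), Tra2b (-2.19), another splicing regulator, Rps6 (-1.94), a ribosomal protein, and Ppia (-1.62) also fell. Ends of Mbnl1 (2.35), Zfp36l2 (2.07), an RNA-binding factor that promotes mRNA decay, Cbfa2t3 (1.96), a hematopoietic corepressor, and Mki67 (1.27), the proliferation marker, rose.

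In histone clusters, whose genes encode the core and linker proteins of chromatin, 2 of 10 regions tested fell and none rose from early-G1 to mid-G1 (background 6.18% and 7.81%, 4 of 10 with a positive change), and from mid-G1 to late-G1 3 rose and none fell (3.03% and 3.85%). The region past Hist1h2bn, at chr13:21846380-21848420, had 113 and 95.1 in early-G1 control and 87.1 and 85.3 in auxin, 45.3, 70.6 and 46.8 in mid-G1 control and 55.7, 53.9 and 37.0 in auxin, and 94.0, 64.1, 97.0 and 81.6 in late-G1. Every mid-G1 value lay below every early-G1 value, and it fell by 3.57 ± 0.52 (adjusted p = 5.73e-04, limma) and then rose by 2.47 ± 0.52 (adjusted p = 0.0105), of which the fall alone was called on the log2 scale (adjusted p = 0.0186). Hist2h2bb had the same course in rank (-2.28 and 2.43), neither called on the log2 scale (adjusted p = 0.562 and 0.545, limma).

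Among non-coding hosts, Snhg5, the host of small nucleolar RNAs of the SNORD50 family, fell late. Its region at chr9:88413278-88418918 had 92.8, 88.1, 98.3 and 96.0 in early-G1, 80.8 to 99.8 in mid-G1 and 58.2, 55.3, 57.1 and 61.2 in late-G1, so that no late-G1 value reached any earlier G1 value. The change was -3.00 ± 0.29 (adjusted p = 3.75e-05, limma) and -0.62 on the log2 scale (adjusted p = 0.0166). The region over an RNase P RNA gene copy, at chr13:33651325-33662663, rose by 3.03 ± 0.31 (adjusted p = 5.2e-05, limma), from 24.9 to 32.3 in early-G1 to 46.2 to 52.3 in late-G1. It was 11339 bp wide and also held the start of the RefSeq long non-coding gene Gm6093. Malat1, a nuclear long non-coding RNA and the best-ranked region over another non-coding TSS, rose from early-G1 to mid-G1 by 2.65 ± 0.43 (adjusted p = 0.00127, limma), with 89.6, 72.2, 108 and 108 in early-G1 and 112 to 130 in mid-G1, a call lost on the log2 scale (0.53, adjusted p = 0.0564). The start of Rpl41 rose by 2.88 ± 0.26 (adjusted p = 2.19e-05, limma) between early-G1 and late-G1, from 37.8 to 47.9 to 69.1 to 76.2.

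With auxin, 12 of the 246 regions ranked lower than in control over the 3 post-mitotic stages (background 0.336%) and none higher (0.393%). All 12 had the lower mean rank with auxin in early-G1, in mid-G1 and in late-G1, which describes the same values that gave the calls. The median change over the 246 was -0.30 against -0.01 over all regions tested and 0.02 over the mitotic regions with a coding TSS, and 165 of the 246 were below 0. Past coding gene ends 81 of 100 were below 0, with a median of -0.40, and 6 were called.
The same ranks can be read list by list. The median rank of the 260 regions was 2321 and 2493.5 in early-G1 control against 3133.75 and 3307.5 in auxin, and 1340.5, 1380.5 and 1939 in mid-G1 control against 1976, 2576 and 3093.25 in auxin. The late-G1 lists overlapped, with 2102.75 and 3330 for control and 2332 and 2481.75 for auxin.
The 12 calls are few and depend on scale and library. There were 6 called lower on centred log2 fold enrichment, 4 of them among the 12, where 1 other region was called higher, and none on the normal score. Leaving out any of the 4 early-G1 libraries, either late-G1 auxin library, mid-G1 auxin replicate 2 or 3 or mid-G1 control replicate 2 left 5 to 7 called lower, and 3 were called higher without late-G1 control replicate 2 and 1 without mid-G1 control replicate 2 or 3.

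The largest was at chr2:158176745-158188100, over 9430008C03Rik, a host of the small nucleolar RNA SNORA71 that RefSeq calls Snhg17. Its fold enrichment was 41.2 and 34.8 in early-G1 control and 20.9 and 20.8 in auxin, 35.1, 37.2 and 42.1 in mid-G1 control and 23.0, 35.8 and 21.6 in auxin, and 39.6 and 45.8 in late-G1 control and 26.8 and 29.3 in auxin. Control and auxin overlapped in mid-G1 only, through auxin replicate 2. The change was -1.98 ± 0.27 (adjusted p = 0.0019, limma) and -0.70 on the log2 scale (adjusted p = 0.00677).
The next was an intergenic region at chr14:115448092-115452275, 42845 bp from the TSS of Gpc5 and beyond Mir17hg, the host gene of the miR-17-92 microRNAs, whose own region began at 115438573. It had 38.5 and 35.0 in early-G1 control and 27.9 and 24.0 in auxin, 27.3, 30.0 and 45.7 in mid-G1 control and 20.4, 18.4 and 18.6 in auxin, and 18.7 and 25 in late-G1 control and 13.1 and 14.6 in auxin. Control lay above auxin in each stage, with a change of -1.65 ± 0.17 (adjusted p = 2.13e-04, limma) and -0.68 on the log2 scale (adjusted p = 0.00331). It also fell from early-G1 to late-G1, by 1.45 ± 0.23 (adjusted p = 0.00101).
The other 2 that the naming rule takes, an intergenic region at chr5:23201902-23205321 (-1.35 ± 0.28, adjusted p = 0.0377) and the end of Pa2g4, a growth regulator that binds ErbB3, at chr10:127991274-127999539 (-1.32 ± 0.29, adjusted p = 0.0492, limma), lost their calls without any of the 4 early-G1 libraries, either late-G1 auxin library, late-G1 control replicate 3 or mid-G1 auxin replicate 2 or 3 (adjusted p = 0.0678 to 0.136 for the first and 0.0908 to 0.169 for Pa2g4), and Pa2g4 also without mid-G1 control replicate 1 or 2 (adjusted p = 0.0707 and 0.0859), on centred log2 fold enrichment (-0.40, adjusted p = 0.153) and with only peaks of −log10 q of at least 5 (adjusted p = 0.0502). Named after their values were seen, the others called included the small Cajal body RNA gene Scarna2 (-1.28, adjusted p = 0.014) and the end of Hsp90aa1, an inducible chaperone (-1.18, adjusted p = 0.0297, limma), neither of which was called on the log2 scale (-0.20, adjusted p = 0.637, and -0.34, adjusted p = 0.213).

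An interaction term tested whether auxin altered the change between early-G1 and late-G1. No region was called, 0 of 246 and 0 of 15784 (0%), and 28 of the 246 and 837 of 15784 had an unadjusted p under 0.05 (limma). The other scales and models gave 0 as well, and without late-G1 control replicate 2 there were 8 calls, all towards a larger rise with auxin. The median difference over the 246 was 0.36, towards a larger rise with auxin, against 0.01 over all regions. Over the mitotic regions with a coding TSS it was 0.18, in the same direction.

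Of 29 erythroid and progenitor regulators, Lmo2 alone, which encodes a bridging factor of the erythroid transcription complex, had the nearest coding TSS of a mitotic region without a coding TSS. Cbfa2t3 is also among the 29, and the region past its end lay nearest to the TSS of another gene. The Lmo2 region, at chr2:103814102-103825489, had its summit 575 bp past the Lmo2 end. Its fold enrichment was 8.75 and 7.15 in prometaphase control and 7.15 and 5.66 in auxin, and after mitosis 12.1 to 21.4 in control and 10.8 to 15.3 in auxin. The change with auxin was -0.78 ± 0.20 in rank (adjusted p = 0.10) and -0.62 on the log2 scale (adjusted p = 0.0312, limma), and the value of mid-G1 control replicate 1 lay within those of the mid-G1 auxin libraries.

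In 300 bp windows around the highest summit their median GC content was 47.3%, against 62% in mitotic regions with a coding TSS and 45.7% over all merged regions. Searched on both strands, the GC box core GGGCGG was present in 15.0% of them, against 58.6% and 7.30%, and the ETS-type CCGGAAG in 5.0% against 19.4% and 2.25%. CCAAT was in 36.2% against 38.9% and 32.7%, TATAAA in 19.6% against 11.6% and 17.8%, and the GATA-type AGATAA in 13.1% against 4.74% and 15.9%. A motif match is a string of letters in a window. Windows in which over 50% of 32-base words occurred elsewhere in the genome numbered 5 (1.92%), against 0.0929% and 1.07%.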

How the data were processed

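PolII ChIP-seq libraries (18, with 4 inputs used only as peak-calling controls) were processed by the authors, who per the submitters' processing notes and the study's methods aligned reads to mm9 with Bowtie2 2.2.9, removed low-quality alignments and duplicates (SAMtools 0.1.19) and blacklisted intervals (bedtools 2.27.1), and called peaks per library against the stage input with MACS2 2.1.0. The deposited lists give each peak's fold enrichment (a ratio), −log10 p-value and q-value, and summit.

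Peaks were merged at 1 bp of overlap. Within each list regions were ranked by fold enrichment, and −log2 rank was fitted with limma 3.58.1 (R 4.3.3) over 6 groups of stage and auxin, in the 15784 regions detected in all 14 post-mitotic lists, with Benjamini-Hochberg adjustment. Sequence was read from mm9 with Python 3.11.15 and samtools 1.23.1. The scripts were tested on simulated data. Background depth was calculated back from the fold enrichments and p-values of each list, with the narrowest peak taken as the fragment length. The study describes the libraries as biological replicates, and as no label says that they were separate cultures, p-values measure only the spread between these samples.

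Members and lists were chosen with earlier results of these data known. Named by rule were the 8 regions of best mean prometaphase rank, the 6 largest called changes per direction from early-G1 to late-G1 with 1 sign in control and auxin, the 4 largest called auxin changes per direction, the 3 best-ranked of each annotation class, the 5 found in fewest post-mitotic lists, up to 10 best-ranked over small RNA genes, and those nearest an erythroid list of 29 genes. One set of gene sequences is not reported here.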

Additional observations from a re-analysis of the deposited data

How the results depend on the processing

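On the normal score of the rank, 5 regions rose and 4 fell from early-G1 to late-G1, 5 and 5 to mid-G1, 0 and 2 from mid-G1 to late-G1, 0 and 0 in either condition alone, and 0 ranked lower with auxin. By the rank of the −log10 p-value 10 fell from early-G1 to mid-G1, 5 rose and 17 fell from mid-G1 to late-G1, 8 rose and 10 fell in control, and 19 ranked lower with auxin. On centred log2 fold enrichment 8 rose and 21 fell from mid-G1 to late-G1, 8 fell in control, and 1 was higher and 6 lower with auxin. A variance trend in limma gave 1 higher with auxin. Samples were not treated as pairs by number, and whether the numbers pair them is not known. The correlations of same-numbered deviations were 0.0144 in early-G1, 0.102, 0.112 and 0.293 in mid-G1 and 0.011 in late-G1. With 2 libraries per condition, deviations in early-G1 and late-G1 mirror each other, so the sign there cannot decide. In mid-G1 the differently numbered gave -0.197 to 0.108. With the replicate block 42 rose and 12 fell in auxin, and 1 was higher and 21 lower with auxin. With a peak in at least 2 of 4 prometaphase lists there were 415 regions, 384 of them in all 14 later lists, 11.33% with a small RNA TSS. With peaks within 1 kb joined there were 130 and 118, of which 29.23% held a small RNA TSS, 26.15% lay in a coding gene, 6.923% upstream and 26.92% elsewhere. Omitting 1 library at a time gave 28 to 54 rises and 20 to 35 falls from early-G1 to late-G1, 29 to 60 and 11 to 17 to mid-G1, 7 to 24 and 20 to 44 from mid-G1 to late-G1, 4 to 14 and 5 to 24 in control, 5 to 35 and 2 to 11 in auxin, 0 to 3 higher and 5 to 16 lower with auxin, and 0 to 8 and 0 to 0 for the difference in course. It left 191 to 229 regions, 181 to 216 in all later lists, with class shares of 18.34% to 21.47% for small RNA TSS, 3.518% to 5.24% for other non-coding TSS, 49.74% to 52.4% in coding genes, 5.677% to 6.03% downstream, 2.01% to 2.62% upstream and 15.03% to 16.75% elsewhere. At the regions of the naming rule no called change between early-G1 and late-G1 or with auxin reversed its sign under these alternatives, but changes that were not called did, such as U5 copy A by the rank of the −log10 p-value, and 1 of the 16 regions called lower from early-G1 to mid-G1 had the opposite sign on log2 fold enrichment. The cause of each difference was not tested. Ranks hide a change that all regions share, and peaks under the authors' threshold are absent from the lists.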
